A study of Homo sapiens with 32 samples.

Results

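The comparison described here is the response of the activating line to tamoxifen: 4 LNCaP libraries under tamoxifen against 4 under vehicle, out of 32 libraries in the series. Its members were taken from the sample labels, and it was read across the 3985 of 57773 table features that passed the expression filter. LNCaP is an androgen-dependent prostate cancer line derived from a lymph node metastasis. All 8 libraries came from a blasticidin-selected LNCaP line, not stated to be a clone, that carries the activating MACC on a lentivirus with a PGK promoter backbone: the DNA-binding domain of a steroid hormone receptor, a 3X FLAG tag, the tamoxifen-responsive ERT2 domain of the estrogen receptor and the transcriptional activator VP64. The treated cultures received 2.5 µM tamoxifen and the others vehicle (EtOH), both for 48 h. The other lines, used here only to test whether a response differed, were the parental LNCaP line without construct, the neutral line (3X FLAG without an effector domain) and the repressive line (KRAB in place of VP64), each with 4 libraries per treatment. Both groups of the comparison carry the construct, so it measures induction within 1 line. The labels describe biological replicates without saying which cultures they came from, and the p-values measure the spread between these samples.

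Steroid hormone receptors bind response elements that are inverted repeats of a short sequence, and in luminal prostate cells hormone signalling drives secretory genes such as kallikreins together with lipid synthesis. The glucocorticoid receptor has FKBP5 among its targets. In this design ERT2 keeps the fusion out of the nucleus until tamoxifen binds it, and VP64 then recruits the transcription machinery to the elements that the DNA-binding domain reaches.

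A stranded kit was used, the strand setting of the counting was not given in the sources used here, and counts of many features have to be read with those of the opposite strand. Across the 8 libraries GAPDH, a glycolytic enzyme and common reference gene, had 22 to 83 counts while RP5-940J5.9, the feature opposite it, had 9417 to 20474. FTH1, the ferritin heavy chain, had 8 to 67 and BEST1, opposite FTH1, 14589 to 82222. MT-ND6, the protein gene on the light strand of the mitochondrial genome, had 4153 to 6284 and MT-CO1, on the heavy strand, 103 to 234. A feature's partner is therefore given below as the opposite-strand gene that shares most exon bases with it, and a gene's opposite feature as the table feature that has this gene as its partner.

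Promoter windows of named genes are shown because the construct's DNA-binding domain recognises such elements. The windows come from RefSeq (GRCh38.p14) and run from 250 bases before to 50 after the annotated start. The 6-base element AGAACA, which is 1 arm of the repeat, was searched on both strands (TGTTCT on the other). It stood in 5 of the 31 windows found for the named features and their partners (16.1%), beside 14.8% of all 35116 windows, a share near the background. The 4 windows below hold it (in capitals) and belong to 2 markers, FKBP5 and KRT5, and to the partners of a rise (UGT1A6) and of a fall (CCNA2); the DDX11 window, the other 1 with the element, is not printed.
FKBP5 promoter, chr6:35728534-35728833, minus strand: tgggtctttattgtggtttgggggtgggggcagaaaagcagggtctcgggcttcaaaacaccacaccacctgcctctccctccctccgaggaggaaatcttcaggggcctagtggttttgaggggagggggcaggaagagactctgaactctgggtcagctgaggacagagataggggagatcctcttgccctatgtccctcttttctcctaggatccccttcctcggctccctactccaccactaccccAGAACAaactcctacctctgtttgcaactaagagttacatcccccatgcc
KRT5 promoter, chr12:52520345-52520644, minus strand: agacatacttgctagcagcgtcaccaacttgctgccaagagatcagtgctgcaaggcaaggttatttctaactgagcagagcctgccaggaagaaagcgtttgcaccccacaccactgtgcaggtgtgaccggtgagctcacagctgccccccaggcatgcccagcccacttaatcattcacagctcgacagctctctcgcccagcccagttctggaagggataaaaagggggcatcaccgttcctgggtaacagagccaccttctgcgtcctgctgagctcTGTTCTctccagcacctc
UGT1A6 promoter, chr2:233691452-233691751, plus strand: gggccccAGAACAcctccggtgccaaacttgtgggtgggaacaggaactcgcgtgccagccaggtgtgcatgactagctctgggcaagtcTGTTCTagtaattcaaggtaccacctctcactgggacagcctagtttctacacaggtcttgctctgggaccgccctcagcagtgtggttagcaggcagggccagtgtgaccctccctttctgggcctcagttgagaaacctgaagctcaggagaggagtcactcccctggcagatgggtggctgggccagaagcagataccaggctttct
CCNA2 promoter, chr4:121823834-121824133, minus strand: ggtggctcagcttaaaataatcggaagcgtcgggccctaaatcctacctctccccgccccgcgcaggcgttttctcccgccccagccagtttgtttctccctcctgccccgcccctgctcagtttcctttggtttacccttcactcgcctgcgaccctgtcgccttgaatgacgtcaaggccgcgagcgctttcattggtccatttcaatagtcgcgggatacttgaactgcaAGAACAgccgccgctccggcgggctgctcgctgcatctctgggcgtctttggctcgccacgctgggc
FKBP5, KRT5 and the feature opposite UGT1A6 rose, and DDX11 and the feature opposite CCNA2 fell. The best match to the full element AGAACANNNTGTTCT in any of the 31 windows was 9 of its 12 fixed bases, reached or exceeded in 10.8% of all windows. A match describes these letters and no binding.

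The libraries held 585379 to 841605 counts in vehicle and 600900 to 698334 in tamoxifen libraries, with 11123 to 12655 and 9393 to 10147 features detected, and the 10 most counted features took 27.1 to 37.4% and 34.4 to 41.8% of counts. The construct was visible as ESR1, the source of ERT2, with 100 to 143 counts in vehicle and 101 to 132 in tamoxifen libraries, against 0 to 2 in the parental line. Replicates differed by more than counting noise in all 12 pairs, and vehicle replicate 3 and tamoxifen replicate 3 stood farthest from the rest of their groups. Of 22 luminal markers 10 passed the filter on their own feature, KRT8, KRT18, HOXB13 and KLK3 among them, while KRT19 and DPP4 had 0 counts and EPCAM, ACPP and MUC1 at most 4. Of the blood and vessel markers CD68 passed it, and PTPRC had 0 counts in all 8 libraries.

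Tamoxifen changed the level of 1786 of 3985 tested features in the activating line (44.8%). Of these 876 were higher (22.0%) and 910 lower (22.8%) with the quasi-likelihood test of edgeR, called where the Benjamini-Hochberg adjusted p was below 0.05, as for every call below. Fitted changes were over 4-fold for 133 of the rises and 163 of the falls, and over 16-fold for 43 and 13. Among all tested features 1625 (40.8%) had normalized counts that did not overlap between treatments. A normalized count is a CPM value after TMM scaling over these 8 libraries and the tested features. The median log2 fold change over all tested features was -0.09.

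Features with a partner were called in 45.4% of cases and features without one in 41.5%. The 902 features with no opposite-strand exon overlap gave 159 higher (17.6%) and 215 lower (23.8%), and the 2937 with 1 or several partners gave 681 higher (23.2%) and 653 lower (22.2%). The excess of falls among features without partner turned round when these 902 were scaled and tested alone, with 192 higher and 169 lower. The median log2 fold change of these features was -0.23 in the fit over all features and -0.05 in the fit of these alone. A feature without partner can still sit beside opposite transcription: of the 374 called, 57 rises and 64 falls lay inside the span of an opposite-strand gene, and a further 64 and 102 within 5 kb of one.

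**Figure D1:**
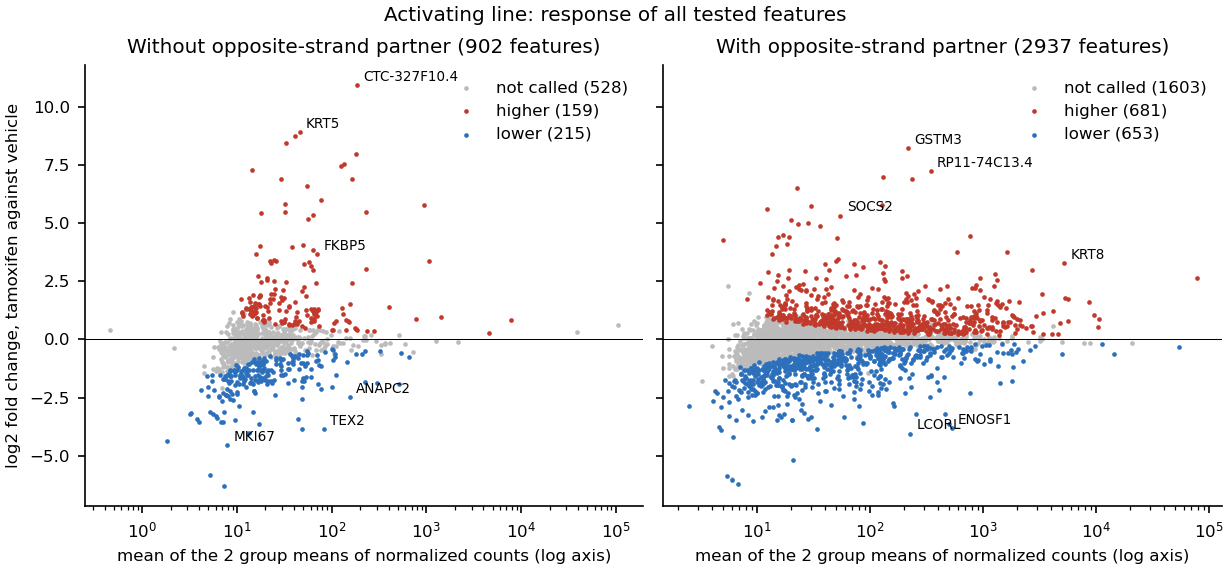
Each point is a tested feature, with the mean of the vehicle and tamoxifen group means of normalized counts on a log x axis and the log2 fold change on the y axis; red marks features called higher, blue lower and grey not called. Rises reach a log2 fold change of 10.93 among features without a partner (left) and 8.25 among those with one (right), and the labelled falls lie between -2.48 and -4.55.

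FKBP5 is a co-chaperone of steroid receptors and a classic target of the glucocorticoid receptor (GRCh37, chr6:35541362-35696360, minus strand). It has no exon overlap, though it lies in the span of an unnamed opposite-strand gene. It had 11, 10, 9 and 2 counts in vehicle replicates 1 to 4 and 79, 59, 60 and 79 in tamoxifen replicates 1 to 4. Every tamoxifen library was above every vehicle library, and the normalized count went from 9.72 ± 4.55 to 130.4 ± 16.5 (SD, n = 4 each), for a fitted log2 difference of 3.69 (SE 0.25, adjusted p = 1.44e-11 from edgeR).

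The other genes on the list of targets shared with the glucocorticoid receptor that could be tested moved the same way. Of 25 list genes 3 were tested by their own features, and 3 were higher, with a median log2 fold change of 3.39. FKBP5 and ZBTB16 were low under vehicle and may have passed the filter only through the treated libraries. Their being higher was then partly set by the filter, so this count and median say little about the list. ZBTB16, a zinc-finger repressor induced by steroids, went from 8.49 ± 2.32 to 92.9 ± 10.9 (SD, n = 4 each; log2 fold change 3.39, adjusted p = 4.23e-11 from edgeR) and overlaps an unnamed opposite gene. KLF9, a Krüppel-like factor without partner, went from 80.5 ± 9.23 to 234.4 ± 23.6 (log2 fold change 1.54, adjusted p = 1.30e-09 from edgeR). The remaining 22 genes, TSC22D3, PER1 and SGK1 among them, did not pass the filter.

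KRT8 encodes the keratin of simple and luminal epithelium that pairs with KRT18 (KRT8: chr12:53290971-53343738, minus strand). Its feature had 1167, 860, 646 and 533 counts under vehicle and 4746, 5848, 4080 and 5529 under tamoxifen. Every treated library was well above every vehicle library, and the log2 fold change was 3.27 (SE 0.11, adjusted p = 2.68e-12 from edgeR). KRT8 and KRT18 share 525 exon bases on opposite strands, and the KRT18 feature moved in the same direction, from 24.1 ± 5.05 to 72.6 ± 11.1 normalized counts (log2 fold change 1.56, adjusted p = 2.56e-06 from edgeR). Which of these keratins the reads of either feature belong to cannot be told apart.

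KRT5, the basal-layer keratin (chr12:52908359-52914314, minus strand), has no opposite-strand gene within 5 kb. It had 0 counts in every vehicle library and 51, 54, 38 and 52 under tamoxifen, at least 98.1-fold higher against a floor of 3 counts over the group (adjusted p = 3.66e-12 from edgeR). KRT6A, a keratin of stressed and activated epithelium, is its neighbour on the same strand at chr12:52880960-52887041. It had 0 counts in every vehicle library and 45, 26, 44 and 58 under tamoxifen, at least 87.0-fold higher (adjusted p = 4.37e-10 from edgeR). Both features were at 0 in all 24 libraries of the parental, neutral and repressive lines, so an interaction with those lines had no usable estimate. These were the only 2 of 19 basal list genes tested. They had counts in the treated activating libraries alone and so passed the expression filter only through the group where they are high. That both were higher was therefore set by the filter and says nothing about the list. TP63, the master regulator of basal cells, had 0 counts on its own feature in all 8 libraries and KRT14 at most 1. No opposite feature of a basal list gene was tested, and a low count on a gene's own feature does not show that its transcript was absent. KRT6A has near-identical copies: KRT6B had 0 counts under vehicle and at most 6 under tamoxifen, and how the counting split reads among them is uncertain. In bulk RNA, a change in the number of cells of a type and a change in RNA per cell cannot be told apart.

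GSTM3 encodes a glutathione S-transferase of the mu class, which conjugates electrophiles to glutathione (chr1:110276554-110283660, minus strand). Its feature had 1 count in each vehicle library and 260, 206, 209 and 251 under tamoxifen. The ratio of the normalized group sums was 349.2 (95% exact interval for counting error 135.9 to 1284), with a log2 fold change of 8.25 (SE 0.22, adjusted p = 6.73e-19 from edgeR). Its partner, RP4-735C1.4, shares 202 exon bases with it and went from 81.4 ± 8.91 to 1091 ± 78.8 normalized counts (log2 fold change 3.74, adjusted p = 6.70e-19 from edgeR). Both features of the locus rose, and whether they report different transcripts cannot be told apart. GSTM3 had few counts in every other group of the 4 lines. It passed the expression filter only through the treated activating libraries, so its being higher was set by the filter. Of the other genes of the mu class none was tested, and GSTM1 had 0 counts in all 8 libraries.

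MKI67 encodes the Ki-67 protein of cycling cells (chr10:129894923-129924687, minus strand, no opposite-strand gene within 5 kb). It had 18, 8, 12 and 11 counts under vehicle and 0, 0, 0 and 1 under tamoxifen. The groups did not overlap, and the ratio of normalized sums was 32.5 in favour of vehicle (95% exact interval for counting error 5.56 to 1309; log2 fold change -4.55, SE 0.74, adjusted p = 2.11e-05 from edgeR).

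**Figure D2:**
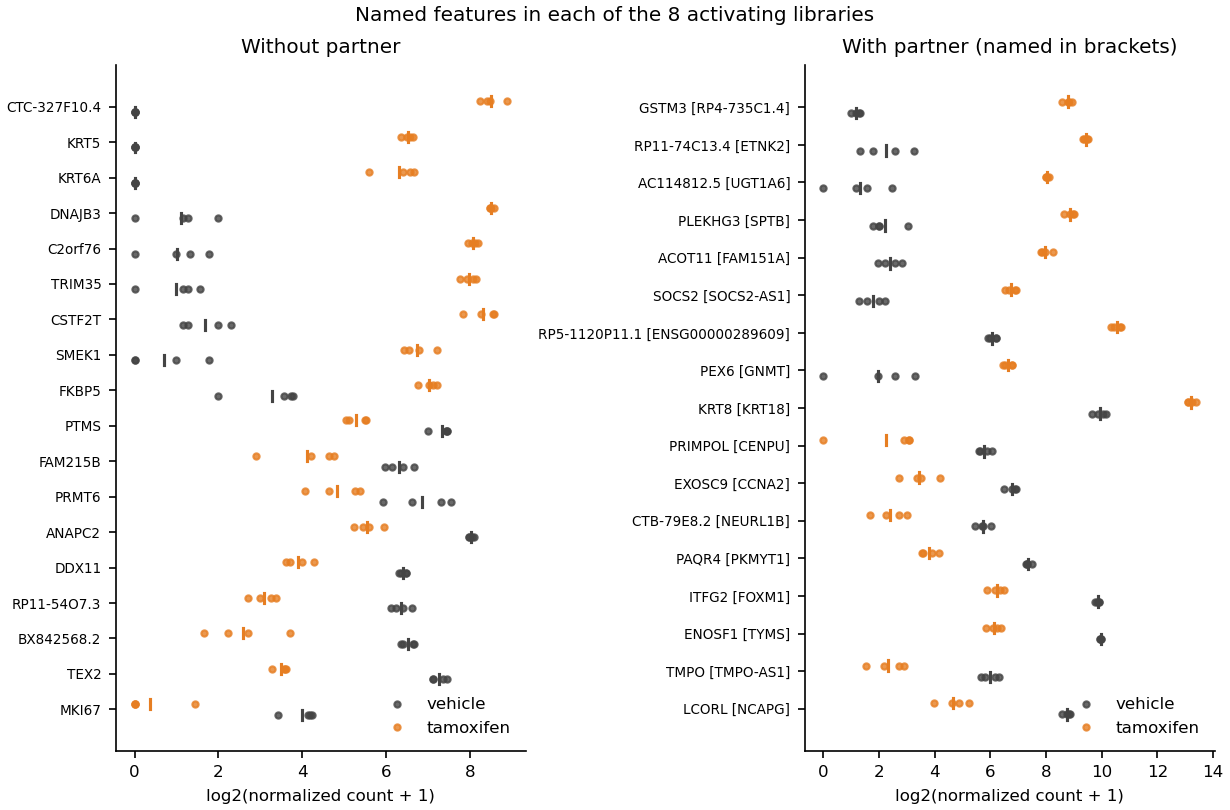
Each point is 1 of the 8 activating libraries, with log2(normalized count + 1) on the x axis and the named features on the y axis, in grey for vehicle and orange for tamoxifen; vertical bars are the means of the 4 plotted values. Groups that do not overlap were a condition for naming the largest rises and falls. KRT5, KRT6A and CTC-327F10.4 are at 0 in all vehicle libraries.

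The largest rises and falls were named among called features that averaged at least 20 counts and whose treatment groups did not overlap. The 8 largest rises without a partner came from features at or near 0 under vehicle and at low counts in the other lines. They passed the expression filter only through the treated activating libraries. CTC-327F10.4 lies inside the span of C5orf46 (chr5:147266675-147267267, plus strand). It had 0 counts in each vehicle library and 182, 164, 221 and 205 under tamoxifen, at least 388.2-fold higher (adjusted p = 1.72e-13 from edgeR). KRT5 and KRT6A followed it.

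DNAJB3, a heat shock co-chaperone gene, had 0 to 2 counts with vehicle and 165 to 204 with tamoxifen (log2 fold change 7.98, SE 0.25, adjusted p = 9.93e-18 from edgeR). It lies within the span of UGT1A1 on the opposite strand, in the locus of the UGT1A enzymes that glucuronidate steroids and bilirubin. A second feature of that locus, AC114812.5, shares 656 exon bases with UGT1A6 and had 2, 1, 0 and 3 counts under vehicle and 147, 139, 118 and 151 under tamoxifen (log2 fold change 6.99, SE 0.27, adjusted p = 4.08e-16 from edgeR). AC114812.5 also passed the expression filter only through the treated activating libraries, so its being higher was set by the filter. The UGT1A6 window printed above held the element at 2 places.

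C2orf76 lies 90 bases from DBI, the acyl-CoA binding protein on the opposite strand, and had 0 to 2 counts with vehicle and 130 to 167 with tamoxifen (log2 fold change 7.56, adjusted p = 8.57e-17 from edgeR). TRIM35, a tripartite-motif ubiquitin ligase that lies 210 bases from PTK2B, had 0 to 2 and 117 to 153 (log2 fold change 7.46, adjusted p = 2.17e-16 from edgeR). CSTF2T, a polyadenylation factor gene inside the span of PRKG1, had 1 to 4 and 125 to 218 (log2 fold change 6.91, adjusted p = 1.75e-15 from edgeR). SMEK1, a regulatory subunit of protein phosphatase 4, had 0 to 2 and 43 to 79, with no opposite-strand gene within 5 kb (ratio of normalized sums 116.2, 95% exact interval for counting error 39.3 to 567.4; adjusted p = 2.95e-12 from edgeR). Groups that do not overlap were a condition for naming these features.

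ATOH8 and EPS8L3 were the other features with 0 counts in all vehicle libraries that were called higher, named here after their values were seen. ATOH8, a basic helix-loop-helix transcription factor, had 29 to 43 counts under tamoxifen. EPS8L3, which lies in the span of GSTM5 next to GSTM3, had 11 to 23. In all, 5 features were at 0 under vehicle and called higher, and 6 were at 0 under tamoxifen and called lower.

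Among features with a partner, the largest rise after GSTM3 was RP11-74C13.4 (chr1:204100190-204101094, plus strand), which shares 444 exon bases with ETNK2, an ethanolamine kinase of phospholipid synthesis. It had 5, 2, 6 and 1 counts under vehicle and 346, 362, 336 and 411 under tamoxifen (log2 fold change 7.23, SE 0.19, adjusted p = 3.81e-19 from edgeR). PLEKHG3, whose exons share 3408 bases with SPTB, a spectrin of the membrane skeleton, had 2 to 5 counts with vehicle and 215 to 296 with tamoxifen (log2 fold change 6.90, adjusted p = 3.69e-18 from edgeR). ACOT11, a fatty acyl-CoA thioesterase gene that overlaps FAM151A, went from 2 to 5 counts to 104 to 166 (log2 fold change 5.79, adjusted p = 5.97e-16 from edgeR). Separate groups were a condition for naming them.

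SOCS2, a suppressor of growth hormone and cytokine signalling, overlaps SOCS2-AS1 by 277 exon bases and had 1 to 3 counts with vehicle and 42 to 68 with tamoxifen (log2 fold change 5.33, adjusted p = 4.97e-13 from edgeR). RP5-1120P11.1, a long noncoding RNA opposite an unnamed gene, had 41 to 73 and 708 to 922 (log2 fold change 4.47, adjusted p = 1.64e-19 from edgeR). PEX6, a peroxisome import ATPase, had 0 to 9 and 42 to 62 (log2 fold change 4.36, SE 0.33, adjusted p = 1.48e-10 from edgeR). SOCS2 and PEX6 passed the expression filter only through the treated activating libraries, so their being higher was set by the filter. The exons of PEX6 meet those of GNMT, the glycine N-methyltransferase on the prostate secretory list, over only 16 bases, printed here because the partner reading of this rise rests on them.
PEX6 and GNMT shared exon bases, GRCh37 chr6:42931603-42931618, plus strand: TTTTTCAGTTCCTGCA
The GNMT feature was not tested.

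BEST1, among the most counted features, encodes a chloride channel, and its exons overlap those of FTH1. The normalized count of BEST1 went from 21249 ± 1178 to 134560 ± 8539 (SD, n = 4 each; log2 fold change 2.66, adjusted p = 2.14e-19 from edgeR), and the FTH1 feature rose too, from 15.6 ± 3.48 to 75.9 ± 35.0 (log2 fold change 2.26, adjusted p = 6.33e-06 from edgeR). CTD-2328D6.1, the most counted feature of all, ranged from 54661 to 135015 normalized counts under vehicle and from 98284 to 194916 under tamoxifen, with overlapping groups and no call (adjusted p = 0.221 from edgeR).

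Among the largest falls with a partner, LCORL (chr4:17842810-18023499, minus strand) shares 1634 exon bases with NCAPG, a condensin subunit that compacts mitotic chromosomes. It had 389, 356, 317 and 305 counts under vehicle and 15, 8, 11 and 21 under tamoxifen, and fell by 4.05 on the log2 scale (SE 0.17, adjusted p = 1.65e-15 from edgeR). The NCAPG feature itself fell by 0.58 (adjusted p = 0.0146 from edgeR), a call lost in DESeq2's test (adjusted p = 0.0766).

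ENOSF1 shares 967 exon bases with TYMS, thymidylate synthase, which makes the thymidine nucleotide for DNA. It had 1023, 802, 701 and 659 counts under vehicle and 30, 37, 38 and 43 under tamoxifen, and fell by 3.83 on the log2 scale (SE 0.11, adjusted p = 9.75e-19 from edgeR). The TYMS feature fell by 1.31 (adjusted p = 0.00119 from edgeR). Both features of this locus were lower in every treated library than in any vehicle library, and whether they report different transcripts cannot be told apart.

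ITFG2 is the partner of FOXM1, the transcription factor of the G2 and M phase program. It had 603 to 885 counts with vehicle and 31 to 44 with tamoxifen (log2 fold change -3.64, adjusted p = 5.97e-18 from edgeR). PAQR4, opposite PKMYT1, the kinase that holds CDK1 inactive, had 102 to 181 and 5 to 9 (log2 fold change -3.60, adjusted p = 6.13e-13 from edgeR). EXOSC9, opposite CCNA2, the cyclin of S and G2 phases, had 73 to 109 and 3 to 8 (log2 fold change -3.35, adjusted p = 1.44e-10 from edgeR). PRIMPOL, opposite the centromere protein gene CENPU, had 38 to 49 and 0 to 4 (log2 fold change -3.34, adjusted p = 8.60e-08 from edgeR).

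TMPO, a nuclear lamina protein gene, overlaps its own antisense transcript TMPO-AS1 and had 33 to 79 counts with vehicle and 1 to 3 with tamoxifen (log2 fold change -3.86, adjusted p = 1.62e-09 from edgeR). TMPO-AS1 fell by 1.82 (adjusted p = 0.00691 from edgeR). The remaining member of the 8, CTB-79E8.2 opposite the ubiquitin ligase gene NEURL1B, had 34 to 45 and 1 to 4 (log2 fold change -3.42, adjusted p = 1.20e-08 from edgeR). Separate treated and vehicle libraries were a condition for naming these 8.

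Among the largest falls without a partner, TEX2, a lipid-transfer protein gene (chr17:62224587-62340620, minus strand), had 141, 113, 123 and 108 counts under vehicle and 6, 6, 5 and 5 under tamoxifen (log2 fold change -3.86, SE 0.22, adjusted p = 6.75e-13 from edgeR). ANAPC2, a subunit of the anaphase-promoting complex which lies 100 bases from SSNA1, had 177 to 257 and 21 to 33 (log2 fold change -2.48, adjusted p = 1.98e-12 from edgeR). DDX11, a helicase of sister chromatid cohesion, had 59 to 80 and 6 to 10 (log2 fold change -2.55, adjusted p = 2.38e-09 from edgeR), and its near-identical copy DDX12P went from 5 to 20 counts to 0, so reads may be split between them.

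PRMT6, an arginine methyltransferase, had 188, 129, 69 and 40 counts under vehicle and 9 to 20 under tamoxifen (log2 fold change -2.14, SE 0.44, adjusted p = 0.00402 from edgeR), with vehicle libraries far apart from each other. PTMS, parathymosin, lies in the span of MLF2 and had a log2 fold change of -2.05 (adjusted p = 1.30e-09 from edgeR). The noncoding or unnamed features BX842568.2, RP11-54O7.3 and FAM215B had log2 fold changes of -3.86, -3.41 and -2.05 (adjusted p = 2.42e-10, 2.99e-10 and 1.60e-06 from edgeR).

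**Figure D3:**
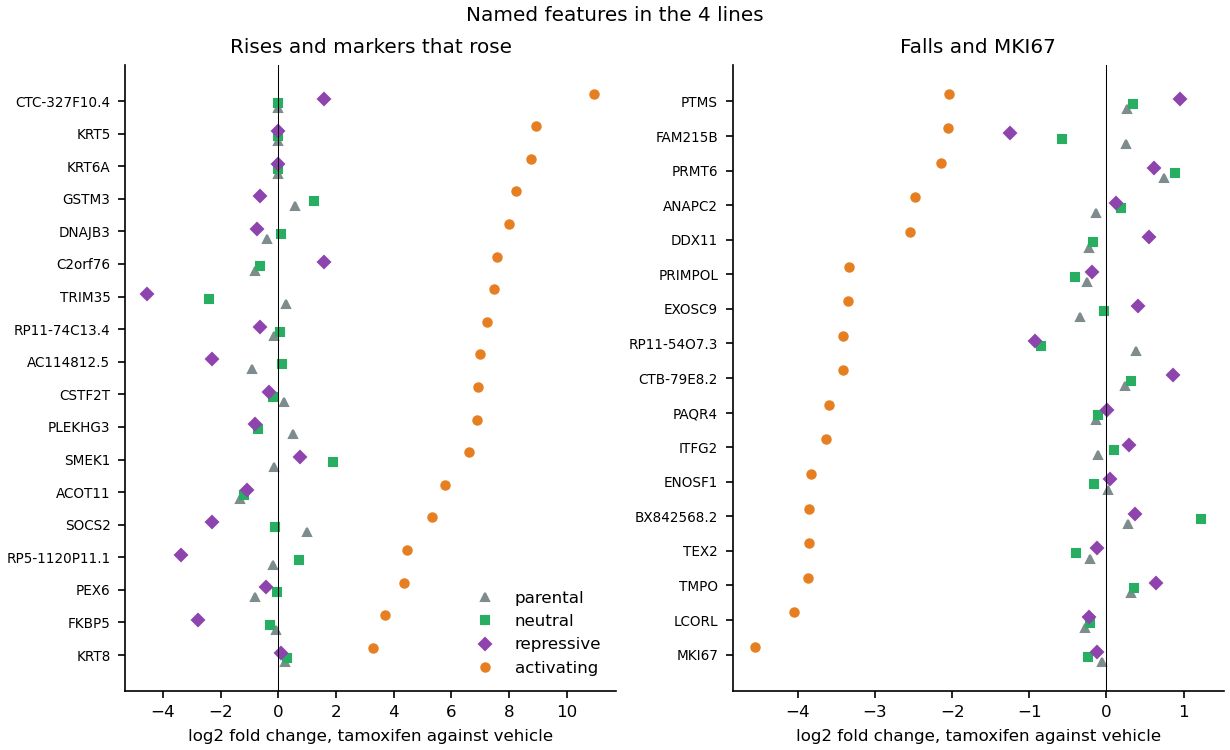
The x axis gives the log2 fold change of tamoxifen against vehicle and the y axis the named features, with 1 symbol per line (parental triangles, neutral squares, repressive diamonds, activating circles); features without counts in a line are drawn at 0. The activating values lie apart from the other 3 lines in both panels, from 3.27 to 10.93 on the left and from -4.55 to -2.05 on the right. Some features in both panels were also called in the repressive line, and some on the right in the neutral line, in either direction. Of the 8 falls without a partner 7 differed from the repressive line in the interaction test.

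The response of the named features was then tested against that of each other line by an interaction over 16 libraries. Over all tested features the response of the activating line differed from the neutral line in 1329 (33.4%; 639 higher and 690, or 17.3%, lower), from the parental line in 1285 (32.2%; 637 higher and 648 lower) and from the repressive line in 1430 (35.9%; 722 higher and 708 lower). Within the other lines tamoxifen changed 0 of 3985 features in the parental line by edgeR (306 at an unadjusted p under 0.05; no other tool was run there), 4.72% of features in the neutral line (2.61% higher, 2.11% lower) and 17.8% in the repressive line (7.8% higher, 9.99% lower). All 16 named features with a partner differed from each of the 3 lines. They were picked as the largest changes in the same activating libraries, so such a difference was largely set in advance. Of the 8 rises without partner 5, 5 and 4 differed from the neutral, parental and repressive lines, the rest including the 3 features that were at or near 0 there, and of the 8 falls without partner 8, 8 and 7 did. The neutral line itself gave calls for 3 of these 8 falls and the repressive line for 5, rises and falls counted together. Among the 8 falls with a partner the repressive line gave 4 calls and the neutral line 0. In raw group totals of the repressive line, FAM215B went from 263 to 109 counts with tamoxifen, while PTMS went from 485 to 930. FKBP5 rose by 3.93 more on the log2 scale in the activating than in the neutral line (SE 0.58, adjusted p = 2.88e-06 from edgeR), and by 6.46 more than in the repressive line, where it fell by 2.78. RP5-1120P11.1 also fell in the repressive line, by 3.37 (adjusted p = 1.57e-09 from edgeR). MKI67 changed by -4.39 relative to the neutral line (SE 0.87, adjusted p = 2.05e-04 from edgeR) and by -0.24 within the neutral line.

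Lists of genes were next read by their own features and by their opposite features. Each count is to be read beside the 22.0% higher and 22.8% lower over all tested features, and each median beside -0.09.

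G2/M phase genes were lower or not called, with none higher. Of 58 list genes 10 were tested by their own feature: 0 were higher and 7 lower, with a median log2 fold change of -1.44. The opposite features of 8 list genes were tested, of which 0 were higher and 6 lower, with a median of -2.81. HMGB2, a chromatin protein of dividing cells without partner, went from 31.95 ± 8.99 to 2.54 ± 2.75 normalized counts (log2 fold change -3.63, adjusted p = 2.28e-06 from edgeR). NCAPD2, a condensin subunit, fell by 2.07 (adjusted p = 2.87e-11 from edgeR), while MRPL51, opposite it, changed by -0.28 (adjusted p = 0.106 from edgeR). TRIM59, opposite the condensin ATPase gene SMC4, went from 1276 ± 88.6 to 260.2 ± 22.9 (log2 fold change -2.29, adjusted p = 4.35e-16 from edgeR). GNB3, opposite the mitotic entry gene CDCA3, and RP11-80G7.1, opposite HMMR, a receptor that acts at the spindle, fell (adjusted p = 7.03e-06 and 6.31e-04 from edgeR), GNB3 with a log2 fold change of -3.33 and RP11-80G7.1 from 5 to 14 counts to a single count in 1 treated library (ratio in favour of vehicle 20.6, 95% exact interval for counting error 3.42 to 837.5). RANGAP1, a Ran GTPase activator without partner, fell by 0.78 (adjusted p = 0.0304 from edgeR), a call lost in DESeq2's test and without vehicle replicate 1 (adjusted p = 0.129 from edgeR), among others. TOP2A and CDK1 had at most 3 counts in any library and were not tested.

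S phase genes were mixed by their own features and lower by their opposite features. By their own features 9 of 45 were tested, 1 higher and 3 lower (median -0.57); by opposite features 5 were tested and 5 were lower (median -2.49). INTS8, opposite the cyclin gene CCNE2, went from 574.4 ± 86.7 to 101.5 ± 16.6 (log2 fold change -2.49, adjusted p = 3.86e-13 from edgeR). RP11-435D7.3, opposite the checkpoint adaptor gene CLSPN, fell by 3.08 (adjusted p = 1.48e-05 from edgeR). GSE1 fell by 2.20 (adjusted p = 1.75e-06 from edgeR), but it shares only 7 exon bases with GINS2, a subunit of the replicative helicase. MCM3, another subunit of that helicase without partner, fell by 1.74 (adjusted p = 0.00339 from edgeR). FEN1, a flap endonuclease of lagging-strand synthesis and repair without exon overlap, went the other way, from 52.2 ± 9.61 to 279.2 ± 26.5 (log2 fold change 2.42, adjusted p = 1.55e-12 from edgeR). HSD17B6, opposite the primase gene PRIM1, fell from 4 to 11 counts to at most 2 (ratio in favour of vehicle 5.52, 95% exact interval for counting error 1.69 to 28.6; adjusted p = 0.0161 from edgeR), a call lost in DESeq2's test and without vehicle replicate 1 (adjusted p = 0.0568 from edgeR), among others; the call of CCNE2 itself (adjusted p = 0.0440 from edgeR) held in only 2 of 8 fits that each left out 1 library, with an adjusted p up to 0.122 without tamoxifen replicate 2.

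Cell cycle inhibitors and p53 targets were few. Of 13 cell cycle inhibitors 2 were tested by their own feature, 1 higher and 1 lower (median -0.22). By opposite features 2 were tested, 1 higher and 1 not called. BTG1, an antiproliferative gene, was read by its opposite feature, which rose from 455.7 ± 42.7 to 1598 ± 80.6 (log2 fold change 1.81, adjusted p = 7.10e-15 from edgeR). RBL2, a retinoblastoma family member, rose by 0.72 (adjusted p = 0.0113 from edgeR). CDKN2C, an inhibitor of CDK4 and CDK6, fell by 1.15 (adjusted p = 0.0106 from edgeR), a call lost without tamoxifen replicate 4 (adjusted p = 0.0550 from edgeR). CDKN1A, the p53-induced inhibitor p21, had 0 to 2 counts with vehicle and 5 to 13 with tamoxifen and was below the filter. Of 24 p53 targets and apoptosis genes 3 were tested by their own feature, 1 higher and 2 not called (median -0.56). The higher one, TNFRSF10B, a death receptor gene opposite RHOBTB2, rose by 2.97 (adjusted p = 2.60e-10 from edgeR). By opposite features 3 were tested and 3 were lower (median -0.73). RP11-611O2.5 and RP11-787I22.3, opposite MDM2, the ligase that degrades p53, and SESN1, fell by 0.57 and 0.73 (adjusted p = 6.06e-06 and 1.01e-04 from edgeR).

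**Figure D4:**
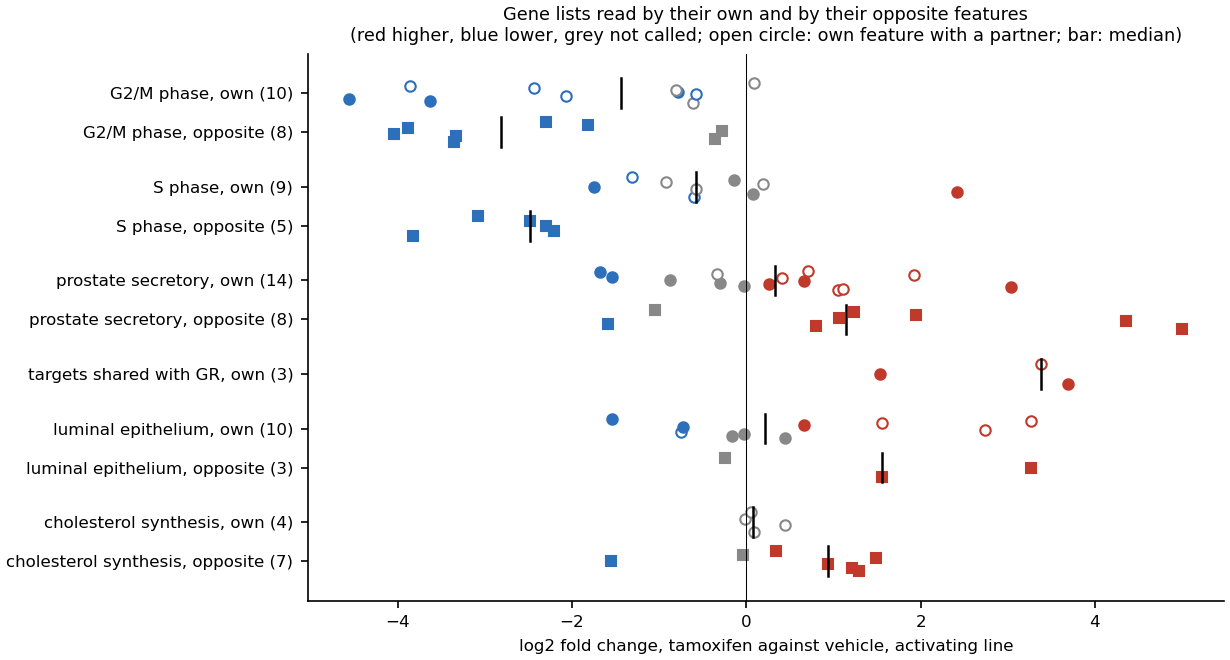
Each symbol is a tested feature of a list, placed by its log2 fold change on the x axis, with circles for list genes read by their own feature (open where it has a partner) and squares for their opposite features; red is higher, blue lower and grey not called, bars are medians and the number tested is in brackets. G2/M symbols lie from -4.55 to 0.09, and the squares of S phase genes all lie at or below -2.20.

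Prostate secretory and hormone-responsive genes moved in both directions. Of 44 list genes 14 were tested by their own feature, of which 8 were higher and 2 lower (median 0.33), and 8 by their opposite feature, of which 6 were higher and 1 lower (median 1.15). Of the 8 rises 4 were called in every setting that tested them and 6 in DESeq2's test. The others were KLK3, NCAPD3, HERC3, lost with at least 10 counts required in every library, and ZBTB10, lost in DESeq2's test (adjusted p = 0.0656) and without tamoxifen replicate 4 (adjusted p = 0.0669 from edgeR), among others. FASN, fatty acid synthase, without partner, went from 49.2 ± 5.16 to 407.5 ± 48.9 (log2 fold change 3.03, SE 0.13, adjusted p = 5.21e-15 from edgeR). AC003991.3, opposite STEAP4, a metalloreductase of the prostate, went from 1.42 ± 1.21 to 55.7 ± 5.66 (log2 fold change 5.00, adjusted p = 2.52e-10 from edgeR). It was near 0 under vehicle and may have passed the filter only through the treated libraries. Its being higher was then set by the filter and adds little to the 6 rises among opposite features. RP11-66B24.4, opposite ALDH1A3, a retinoic acid synthesis enzyme, went from 1372 ± 50.6 to 5282 ± 209.1 (log2 fold change 1.95, adjusted p = 2.91e-17 from edgeR). ABHD2, a lipase gene, and RP11-326A19.5 on the other strand rose by the same amount, 1.06 each (adjusted p = 1.11e-07 and 8.18e-12 from edgeR). PMEPA1, an inhibitor of TGF-beta signalling, rose by 1.93 (adjusted p = 6.33e-06 from edgeR).

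Of 3 kallikreins tested 1 was called. KLK3, prostate-specific antigen, rose by 0.66 (adjusted p = 0.0130 from edgeR), a call lost in DESeq2's test (adjusted p = 0.0528). KLK2 had a log2 fold change of -0.31 (adjusted p = 0.527 from edgeR) and KLK4 -0.88 (adjusted p = 0.0770 from edgeR). SLC45A3, the gene of the prostate antigen prostein, went from 28.7 ± 7.59 to 8.91 ± 4.001 (log2 fold change -1.68, adjusted p = 4.25e-04 from edgeR). It has no opposite-strand exon overlap. JAM3, opposite NCAPD3, fell by 1.59 (adjusted p = 7.57e-06 from edgeR), while NCAPD3 rose by 0.41 (adjusted p = 0.0150 from edgeR), a call lost without tamoxifen replicate 4 (adjusted p = 0.0651 from edgeR).

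Of 22 genes, the luminal list gave 4 higher and 3 lower of 10 tested by their own feature (median 0.21). Besides KRT8 and KRT18, GRHL2, a transcription factor of epithelial identity, rose from 15.3 ± 7.58 to 107.7 ± 22.8 (log2 fold change 2.74, adjusted p = 6.57e-09 from edgeR), and it overlaps KB-1562D12.1 by 50 bases. HOXB13, the homeobox factor of prostate identity, fell by 0.72 (adjusted p = 0.00964 from edgeR), a call lost in DESeq2's test (adjusted p = 0.0535). Of the neuroendocrine list NCAM1 alone was tested, with 4 to 15 counts under vehicle and none under tamoxifen, which was lower by at least 9.72-fold (edgeR adjusted p = 6.54e-05), and CHGA had at most 1 count. Among mesenchymal genes FN1, fibronectin, fell by 1.497 (adjusted p = 4.02e-04 from edgeR), while VIM-AS1 and ACTA2-AS1, opposite vimentin and smooth muscle actin, rose by 2.61 and 1.63 (adjusted p = 6.51e-07 and 1.16e-06 from edgeR); the VIM feature had at most 3 counts. Of the blood and vessel markers only CD68 was tested, higher by 0.99 (adjusted p = 0.0317 from edgeR), a call lost in DESeq2's test and without tamoxifen replicate 4 (adjusted p = 0.151 from edgeR), among others.

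Cholesterol synthesis genes were read mainly from the other strand. By their own features 4 were tested and 0 called by edgeR or by DESeq2's test, with 0 also at an unadjusted p under 0.05 in edgeR. By their opposite features 7 were tested, with 5 higher and 1 lower (median 0.94). CTD-2636A23.2, opposite the HMG-CoA synthase gene HMGCS1, went from 501.3 ± 77.8 to 1157 ± 80.5 (log2 fold change 1.21, adjusted p = 4.37e-10 from edgeR). The features opposite LSS and IDI1 (AP001468.58 and IDI2-AS1), enzymes of later steps, rose by 1.29 and 0.94 (adjusted p = 0.00205 and 2.56e-06 from edgeR). IFT20, opposite TMEM97, fell by 1.56 (adjusted p = 1.09e-06 from edgeR).

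Of the stress response list, CALR, an endoplasmic reticulum chaperone, rose by 0.67 on its own feature and by 0.54 on the opposite one, CTC-425F1.4 (adjusted p = 2.91e-06 and 2.66e-06 from edgeR). Own features gave 1 higher and 1 lower of 5 tested (median -0.45), and opposite features 3 higher of 5 (median 0.54). The lower one, ATF4, the transcription factor of the integrated stress response, fell by 0.98 (adjusted p = 0.0269 from edgeR), a call lost in DESeq2's test and without vehicle replicate 1 (adjusted p = 0.122 from edgeR), among others. Of NF-kappa-B targets 1 of 3 own features was lower, IER3 by 0.45 (adjusted p = 0.0271 from edgeR), a call that did not hold in DESeq2's test or without tamoxifen replicate 4 (adjusted p = 0.132 from edgeR), among others. Estrogen receptor targets gave 0 calls of 1 own feature (CCND1, log2 fold change 0.02, adjusted p = 0.964 from edgeR) and 1 higher and 2 lower of 3 opposite features; tamoxifen is a ligand of that receptor. Of the 15 mitochondrial features MT-ND6 rose by 0.82 (adjusted p = 3.72e-09 from edgeR) and MT-ND1 fell by 0.57 (adjusted p = 4.82e-05 from edgeR), and the other 13 were not called. Given the strand counts above, the reads of the MT-ND6 feature may come from the opposite strand. Its rise is therefore not shown for the MT-ND6 transcript. ESR1, which reports the construct, rose by 0.47 (adjusted p = 0.00405 from edgeR). Its raw counts were 100 to 143 under vehicle and 101 to 132 under tamoxifen, while the TMM factors were 1.06 to 1.24 and 0.79 to 0.91. How much of the fitted rise comes from this scaling was not tested. ZNF10, a KRAB donor gene, had at most 1 count.

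Pairs of opposite features did not always move together. Of 555 pairs in which each feature was the partner of the other and both were tested, 138 had both features called, 85 with both moving alike and 53 moving apart, and 251 had 1 called. In the 87 pairs whose mean counts differed by at least 20-fold, the feature with fewer counts had a lower log2 fold change than its partner in 62, with a median difference of -0.41. GAPDH is an example, with a log2 fold change of -0.76 (adjusted p = 7.76e-04 from edgeR) while RP5-940J5.9 changed by -0.16 (adjusted p = 0.0516 from edgeR). The median log2 fold change was -0.28 over the features with fewer counts and 0.09 over those with more. The part of this difference in the falls of weakly counted features, such as MKI67, HMGB2 and SLC45A3, was not tested.

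**Figure D5:**
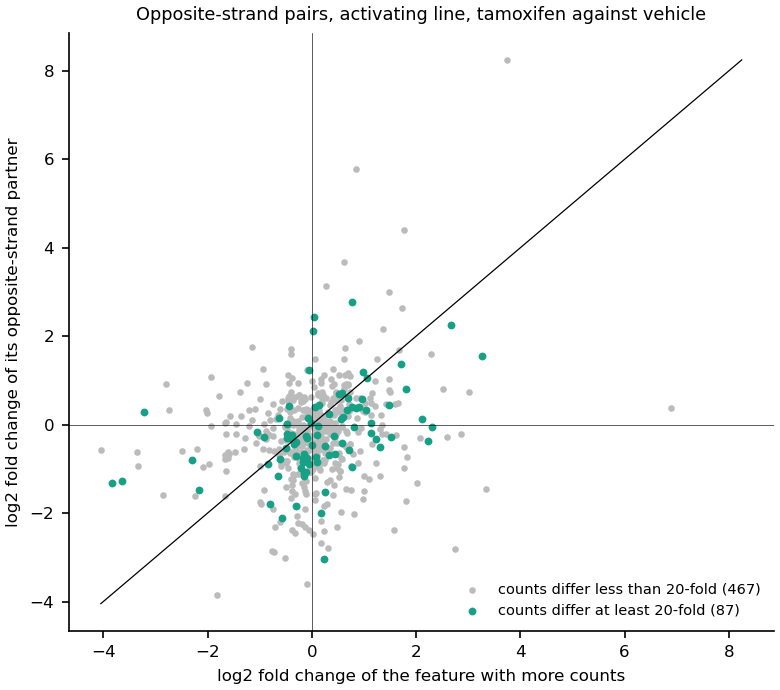
Each of 554 points is a pair of opposite features in the activating line, with the log2 fold change of the feature with more counts on the x axis and that of its partner on the y axis; the line marks equal change, and green marks the 87 pairs with mean counts at least 20-fold apart. Of the green points 62 lie below the line, and GSTM3 with RP4-735C1.4 is the highest point, at 3.74 and 8.25.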

How the data were processed

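RNA of 32 LNCaP cultures was sequenced by the authors from a stranded mRNA kit, and the deposited table holds estimated counts per gene, made by the authors with Salmon (version 1.9.0 per the submitters' notes) on GRCh37. Salmon's strand setting and the annotation release are not given in the sources used here. Estimated counts were rounded, and the total per library sets the precision, so intervals cover counting error only. Partners came from exon overlap in a GENCODE annotation of the same build.

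Genes passing filterByExpr were tested with TMM scaling and edgeR's quasi-likelihood test (edgeR 4.0.16, R 4.3.3), with Benjamini-Hochberg adjustment and a threshold of 0.05, over the 8 activating libraries, or 16 for interactions. Against simulated data for this comparison, 58 of 100 genes changed 2-fold and 93 of 100 changed 4-fold were recovered among 3985, with 5 unchanged genes called. Only these genes were changed there, as many up as down, while 44.8% of features were called in the data. The simulated rates need not hold for these data. DESeq2 (1.42.0), other scalings, filters, subsets and left-out libraries were alternatives. A group total of 0 was replaced by a floor of 3 counts.

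Named features were called, averaged at least 20 counts, and did not overlap between treatments: the 8 largest rises and falls with and without a partner, then 5 marker genes and list genes. The markers and lists were chosen with earlier results of these data known. Some genes of the lists, though counted in them, are not reported here.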

Additional observations from a re-analysis of the deposited data

Results flagged for a closer look

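In 7 of 67 groups of 4 libraries tested, 1 library stood apart from the other 3 by Dixon's criterion. Chance meets it in about 1 in 20 groups of continuous values. That rate does not hold for small counts with ties, such as those of MKI67 and TEX2 under tamoxifen. In normalized counts the flagged libraries were TEX2 in tamoxifen replicate 4 (lowest, 8.69), PTMS in vehicle replicate 2 (lowest, 127.0), PLEKHG3 in vehicle replicate 3 (highest, 7.12) and PAQR4 in vehicle replicate 1 (highest, 178.4). The others were PRIMPOL in tamoxifen replicate 4 (lowest, 0), and MKI67 in vehicle replicate 2 (lowest, 9.77) and in tamoxifen replicate 4 (highest, 1.74).

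The response to tamoxifen differed between the activating line and the neutral line in 1329 genes, the parental line in 1285 and the repressive line in 1430, by edgeR's interaction test. Among the 35 features named by rule, 32 differed from the neutral line. Most were picked for large changes in the same activating libraries, so this count was largely set in advance. The response in the activating line minus that in the neutral line, on the log2 scale, was 7.88 for DNAJB3, 8.16 for C2orf76, 9.80 for TRIM35, 7.08 for CSTF2T and 4.75 for SMEK1. Among rises with a partner it was 7.02 for GSTM3, 7.14 for RP11-74C13.4, 6.84 for AC114812.5, 7.59 for PLEKHG3, 6.96 for ACOT11, 5.43 for SOCS2, 3.73 for RP5-1120P11.1 and 4.36 for PEX6. It was -3.50 for TEX2, -5.12 for BX842568.2, -2.60 for RP11-54O7.3, -2.40 for DDX11, -2.70 for ANAPC2, -3.07 for PRMT6, -1.50 for FAM215B and -2.42 for PTMS. Among falls with a partner it was -3.87 for LCORL, -4.26 for TMPO, -3.70 for ENOSF1, -3.77 for ITFG2, -3.52 for PAQR4, -3.77 for CTB-79E8.2, -3.36 for EXOSC9 and -2.96 for PRIMPOL. For the markers it was 3.93 for FKBP5, 2.94 for KRT8 and -4.39 for MKI67.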

How the results depend on the processing

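No call shared between settings changed direction, and the features named by rule were called in every setting that tested them. Most of those features were picked as the largest changes, so their calls were largely set in advance. DESeq2's test called 1440 features (770 higher, 670 lower), DESeq2's size factors 1777, no filter on low counts 1904 and the fit of all 32 libraries 1845. With at least 10 counts in every library 1071 were called (511 higher, 560 lower), without a partner 361 (192 and 169), with under 100 shared opposite-strand bases 417 (218 and 199), and with no opposite-strand gene within 5 kb, chosen after seeing the data, 77 (41 and 36); these settings test fewer features. In the same order the interaction counts were 802, 246, 299 and 55 against the neutral line, 807, 237, 273 and 46 against the parental line, and 854, 291, 337 and 50 against the repressive line. Fits that each left out 1 library gave 1608 to 1717 calls (800 to 856 higher, 807 to 876 lower) and interactions of 1219 to 1303, 1159 to 1258 and 1330 to 1416 against the neutral, parental and repressive lines. Same-numbered libraries correlated at 0.118, 0.0984, 0.1496 and 0.0365 and share only a number; tamoxifen replicate 2 correlated best with vehicle replicate 1 (0.199). A fit with the replicate number as a block called 1922 (946 higher, 976 lower), of which 1772 were shared, and its interactions numbered 1412, 1405 and 1571. At the counts in the table, 58 of 100 simulated 2-fold changes were recovered; the number of reads sequenced was not analysed here.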

Other observations

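Of 9 tested features with 0 counts in all tamoxifen libraries 6 were called lower, a direction set in advance by the 0 counts. These 6 were named after their values were seen. CDC23, which overlaps KIF20A, a kinesin of cytokinesis, had 5 to 11 counts under vehicle. NCAM1 had 4 to 15, C14orf39 had 0 to 16 and RP11-673C5.1 had 2 to 12. DDX12P and RPS3AP6, which are pseudogenes, had 5 to 20 and 0 to 5.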
